A study of Mus musculus with 2 samples.

Results

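The 31 genes described here are type I interferon stimulated antiviral genes, taken by gene name from the non-control rows of both scanner files, with older symbols such as Tyki for Cmpk2 and Isgf3g for Irf9 matched to the current ones. Of the 31, 30 had a probe, 47 probes in all. Xaf1 was not found under any of its names, and the only probe of Oas1g was not well above background in any channel. The other 29 genes were among the 17685 genes tested. The choice used no measured value of these arrays, although earlier results of the same data were known when the genes were chosen.

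RNA came from B cells sorted by flow cytometry from peripheral lymph nodes of Ccr7 knock-out mice (strain B6.129P2(C)-Ccr7tm1Rfor/J) and of wild-type C57BL/6J mice, isolated without culture. The protein CCR7 is a receptor for chemokines of lymphoid tissue and directs immune cells to lymph nodes. RNA of 3 sorted samples was combined into each pool, and each of 2 two-colour arrays held knock-out and wild-type pools of the same number: array 1 had Cy5 on the knock-out and Cy3 on the wild-type RNA, and array 2 the reverse. The replicate is therefore the array (n = 2), pooling hides the spread between sorted samples, and on any 1 array dye, pool and genotype cannot be told apart. In bulk RNA of sorted cells, fewer cells of a kind and less RNA per cell cannot be told apart either.

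Type I interferons bind a receptor formed by IFNAR1 and IFNAR2. The kinases JAK1 and TYK2 then activate transcription factors, and a complex that holds STAT2 and IRF9 binds the interferon stimulated response element in the promoters of responding genes. The products of those genes sense foreign RNA, block its translation or replication, or adjust the signal itself, and lymphocytes keep many of them at a basal level without infection.

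The promoters of 5 of the genes are shown because they carry the letters of this element. The base sequences are from RefSeq (build GRCm38.p6), run 5′ to 3′ on the strand of the gene and end at the base before the annotated start. Capitals mark matches to GAAA, 2 bases of any kind and GAAA again, on either strand (read on the other strand as TTTC, 2 bases and TTTC), with overlapping matches joined. The windows are chr19:34640709-34640888 on the plus strand, chr19:34583349-34583528 on the plus strand, chr12:26456453-26456632 on the minus strand, chr4:156200819-156200998 on the minus strand and chr5:120907526-120907705 on the minus strand.
Ifit1: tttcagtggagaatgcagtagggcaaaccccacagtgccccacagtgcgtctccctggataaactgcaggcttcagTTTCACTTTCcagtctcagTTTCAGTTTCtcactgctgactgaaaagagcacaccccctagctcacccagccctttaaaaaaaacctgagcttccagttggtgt
Ifit3: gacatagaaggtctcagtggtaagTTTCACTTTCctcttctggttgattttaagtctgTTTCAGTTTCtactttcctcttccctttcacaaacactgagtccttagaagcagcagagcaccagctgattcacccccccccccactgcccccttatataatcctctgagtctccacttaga
Rsad2: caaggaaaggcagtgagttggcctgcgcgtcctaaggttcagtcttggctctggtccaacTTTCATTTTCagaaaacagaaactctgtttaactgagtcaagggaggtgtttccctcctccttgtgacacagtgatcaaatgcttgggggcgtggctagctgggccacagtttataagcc
Isg15: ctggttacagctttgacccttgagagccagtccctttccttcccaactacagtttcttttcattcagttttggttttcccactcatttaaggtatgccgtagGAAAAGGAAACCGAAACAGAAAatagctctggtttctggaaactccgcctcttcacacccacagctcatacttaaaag
Oas1a: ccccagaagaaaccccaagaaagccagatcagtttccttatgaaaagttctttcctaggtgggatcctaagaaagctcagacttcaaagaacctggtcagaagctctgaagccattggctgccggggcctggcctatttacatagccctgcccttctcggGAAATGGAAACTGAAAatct

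A window from 250 bases before to 50 bases after the start was held for 22 of the 31 genes, and 12 of the 22 (54.5%) contained the element's letters. The share was 3.99% over all 27025 genes with a window. Counted from the annotated start, the Ifit1 matches begin at -104 and -85, and the 3 overlapping Isg15 matches begin between -78 and -66. Genes with a match had unlike ratios on array 1. Ifit1 and Ifit3 had the lowest there, whereas Isg15 and Oas1a, with 3 and 2 matches, were near 0. Whether a match goes with the ratio was not tested. The median ratio (log2, knock-out over wild-type) on array 1 was -0.41 for the 11 tested genes with a match and -0.26 for the 9 without one. On array 2 these medians were 0.08 and 0.01. A match is a description of the letters and not a shown binding site.

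On array 1 the interferon stimulated genes gave less signal in the knock-out pool than in the wild-type pool, and on array 2 their median was near that of all genes. The median log2 ratio over the 29 genes was -0.41 on array 1 and 0.04 on array 2, beside 0 and -0.02 over all genes. The array 2 value depends on the dye correction: relative to the median of all genes it was 0.06 with loess and -0.12 with median centring or no correction, while the array 1 value was -0.41 with loess and -0.42 with either of the others. Counted by probe, 35 of the 43 probes past the filter were lower in the knock-out on array 1 and 17 on array 2. The share of lower probes over all probes was not computed. The median over the 43 probes was -0.26 on array 1 and 0.01 on array 2, beside -0.01 and -0.02 over all 25974 probes. On array 1, 26 of 29 were lower in the knock-out, where 50.9% of all genes were. On array 2, 11 of 29 were lower, against 55.0% of all genes. At least 1.5-fold lower on array 1 were 9 of 29 (Ifit1, Ifit3, Rsad2, Mx2, Dhx58, Oas2, Ifit2, Usp18 and Ifih1), against 3.64% of all genes, and 0 were at least 1.5-fold higher, against 2.53%. On array 2 the ratios (log2) of these 9 genes were -0.35 for Rsad2 and between -0.22 and 0.16 for the others. On array 2 none of the 29 reached 1.5-fold in either direction, which 1.88% of all genes did downwards and 1.11% upwards.

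**Figure D1:**
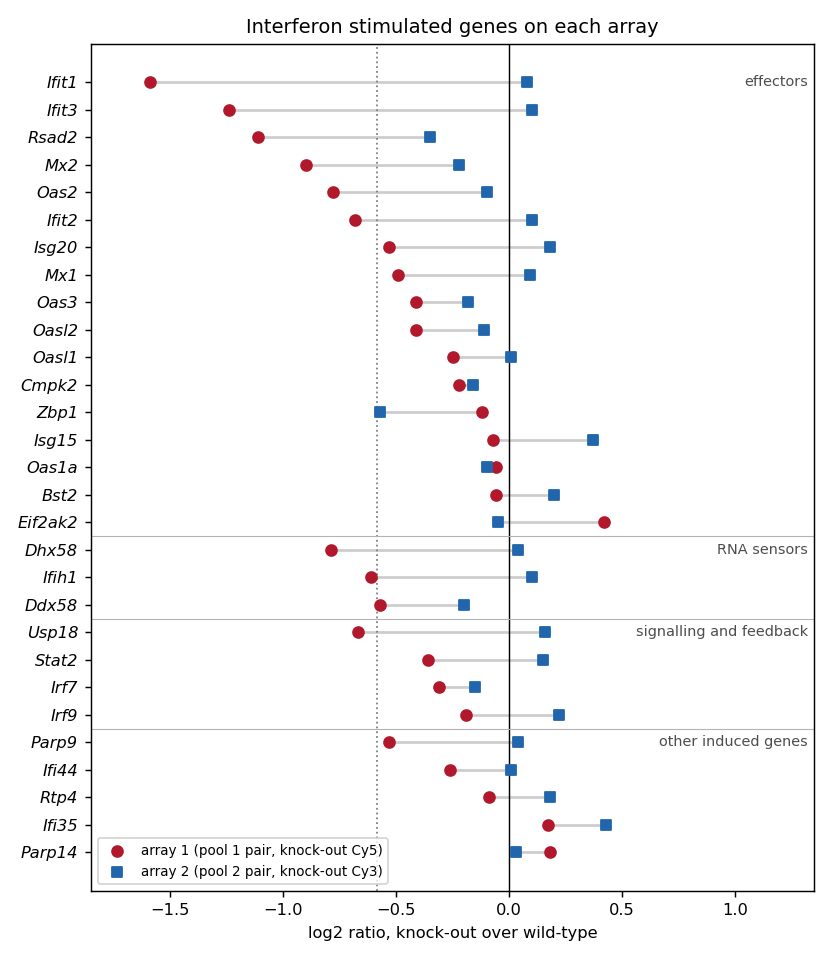
Knock-out over wild-type ratio (log2) on array 1 (circles) and array 2 (squares) for the 29 tested genes, grouped by role and ordered by the array 1 value; the dotted line marks 1.5-fold lower. The circles reach -1.59, while all squares lie between -0.57 and 0.43.

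Over both arrays 0 of the 29 genes passed an adjusted p of 0.05 by limma, which 0.102% of all genes did. The smallest adjusted p was 0.306, for Rsad2. At an unadjusted p of 0.05, 4 of 29 were lower (Rsad2, Mx2, Ddx58 and Oas2) and 0 were higher, where 5.97% of all genes were lower and 3.15% higher. By the brightest probe, 10 genes were lower on both arrays, against 30.0% of all genes. Higher on both were 2 (Ifi35 and Parp14), against 24.2%. Among these genes, dimmer probes of Oas3, Cmpk2, Ddx58 and Parp14 differed in direction on an array. Lower on array 1 and higher on array 2 were 16 of 29, against 20.8% of all genes. Across the 29 genes, which share arrays and dyes and are no independent replicates, the ratios of the arrays had a Pearson's r of 0.156 and a Spearman's rho of 0.198, beside 0.0979 and 0.15 over all 17685 genes.

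**Figure D2:**
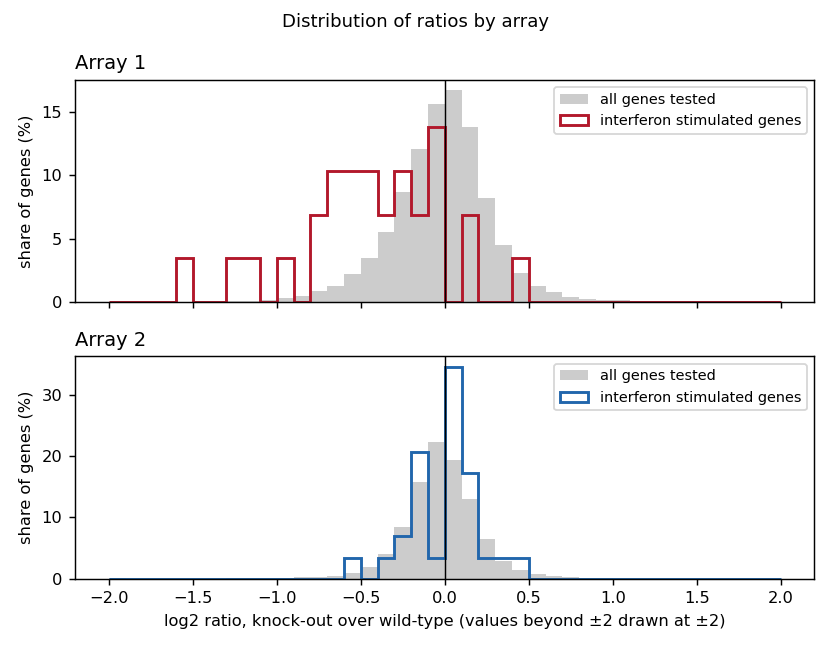
Share of genes (per cent) by knock-out over wild-type ratio (log2) in bins of equal width, for all 17685 genes tested (grey) and the 29 interferon stimulated genes (outline), on each array. On array 1 the outline lies left of the grey histogram (medians -0.41 and 0), and on array 2 the medians are 0.04 and -0.02.

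The IFIT proteins bind viral RNA and hinder its translation. Ifit1 (probe on chromosome 19, 34715303 to 34715362, build mm8) had a normalized log2 intensity of 9.41 in knock-out pool 1 and 9.97 in knock-out pool 2, against 11.00 in wild-type pool 1 and 9.88 in wild-type pool 2. Wild-type pool 1 was thus the one high pool, and the other wild-type pool lay between the knock-out pools. The ratios were -1.59 on array 1, the 9th lowest of 17685 genes, and 0.08 on array 2. The mean of -0.75 ± 0.34 (SE, n = 2) had an adjusted p of 0.568 by limma and a 95% interval from -1.55 to 0.04.

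Ifit3 (chromosome 19, 34654612 to 34654671) repeated this order, with 12.26 and 12.56 in the knock-out pools, against 13.50 and 12.46 in the wild-type pools. Its ratio was -1.24 on array 1, the 28th lowest, and 0.10 on array 2. The near-identical gene Ifit3b, which can share signal with Ifit3, had ratios of -1.24 and 0.08 but another order of pools. It had 6.65 and 8.34 in the knock-out pools, against 7.89 and 8.26 in the wild-type pools, so knock-out pool 1 was the low one. Ifit2 had 9.23 and 9.76 in the knock-out pools, against 9.91 and 9.66 in the wild-type pools, so that knock-out pool 1 was the low one and the other 3 pools lay close together. Its second probe was not well above background in any channel.

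Rsad2 encodes viperin, an enzyme that makes a chain-terminating nucleotide, and Cmpk2, its neighbour on chromosome 12, a nucleotide kinase. Rsad2 by its brightest probe (chromosome 12, 27029262 to 27029321) had 10.37 and 10.18 in the knock-out pools, against 11.49 and 10.53 in the wild-type pools. Both knock-out pools were below both wild-type pools, as for 3 of 29 genes in all (Rsad2, Mx2 and Ddx58), against 13.3% of all genes. The ratios were -1.11 and -0.35, with a mean of -0.73 ± 0.19 (SE, n = 2), an unadjusted p of 0.00617 by limma and an adjusted p of 0.306. Its dimmer probes gave -0.54 and -0.24 on array 1, and 0 and -0.05 on array 2. Cmpk2 by its brightest probe differed far less, with -0.22 on array 1 and -0.16 on array 2. Its dimmer probe gave 0.08 and -0.09.

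The MX proteins are GTPases that block viruses, although many inbred strains, C57BL/6 among them, carry a defective Mx1 allele. Mx2 (chromosome 16, 97715636 to 97715695) had 10.64 and 10.43 in the knock-out pools, against 11.54 and 10.64 in the wild-type pools. Knock-out pool 1 and wild-type pool 2 differed by only 0.01, so the separation rests on wild-type pool 1. Mx2 had ratios of -0.90 and -0.22, and their mean of -0.56 ± 0.18 (SE, n = 2) gave an adjusted limma p of 0.393. Mx1 had -0.49 on array 1 and 0.09 on array 2, and its dimmer probe -0.44 and 0.

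The oligoadenylate synthetases make the messenger that activates RNase L, an enzyme that degrades RNA, and OASL1 and OASL2 are related proteins. Oas2 had the largest difference among them, with 11.97 and 11.78 in the knock-out pools, against 12.75 and 11.88 in the wild-type pools. Its ratios were -0.78 and -0.10 (mean -0.44 ± 0.18 SE, n = 2, limma adjusted p 0.529). A dimmer Oas2 probe, well above background in 2 channels, gave -0.26 and -0.07. Oas3 by its brightest probe had -0.41 and -0.18, and by its dimmer one -0.12 and 0.08. Oasl2 had -0.41 and -0.11, and Oasl1 -0.25 and 0.01. Oas1a had -0.06 and -0.10, the closest accord between arrays in the group, and a 95% interval of the mean from -0.38 to 0.22. The Oas1 genes are close copies of one another, so their probes may share signal.

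Isg15, a ubiquitin-like protein that is joined to other proteins, had 11.31 and 11.16 in the knock-out pools, against 11.37 and 10.79 in the wild-type pools. Here wild-type pool 2 was the low pool, and the ratios were -0.07 and 0.37, with a mean of 0.15 and a 95% interval from -0.21 to 0.51. The file places its probe on chromosome 17 (45870420 to 45870479, mm8), whereas RefSeq lists Isg15 on chromosome 4, so signal from another copy cannot be told apart. Isg20, an exonuclease that degrades RNA, had -0.53 and 0.18, and its other probe -0.28 and 0.23.

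Among the remaining effectors, Bst2 (tetherin, which holds budding virus at the membrane) had -0.06 and 0.20. Eif2ak2, the kinase PKR that halts translation on binding double-stranded RNA, went the other way on array 1, with 0.42 there and -0.05 on array 2. Its level was 10.93 and 9.99 in the knock-out pools, against 10.51 and 10.05 in the wild-type pools. Zbp1, a sensor of Z-form nucleic acid that can trigger cell death, had the lowest ratio on array 2, -0.57, and -0.12 on array 1. For Zbp1 the pools of array 1 stood above those of array 2 in both genotypes, with 13.14 and 11.44 in the knock-out pools, against 13.27 and 12.00 in the wild-type pools.

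The cytosolic RNA sensors Dhx58 and Ifih1 were lower in the knock-out on array 1 and near 0 on array 2. Dhx58 (LGP2, a regulator of the other sensors) had 10.76 and 10.78 in the knock-out pools, against 11.55 and 10.74 in the wild-type pools. Its ratio was -0.79 on array 1 and 0.04 on array 2. Ifih1 (MDA5, a sensor of long double-stranded RNA) had 9.03 and 9.24 in the knock-out pools, against 9.63 and 9.15 in the wild-type pools, with ratios of -0.61 and 0.10.

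Ddx58 (RIG-I, a sensor of RNA with an uncapped end) depended on the probe. By its brightest probe the ratios were -0.57 and -0.20 (mean -0.38 ± 0.14 SE, n = 2, limma adjusted p 0.485). The other 3 probes gave 0.47, 0.25 and -0.31 on array 1, and 0.05, -0.13 and 0 on array 2. The direction of Ddx58 on array 1 is therefore not settled by these probes. Dhx58 lies 1.55 Mb and Ifi35 2.31 Mb from the Ccr7 probe on chromosome 11, where the knock-out strain can carry donor sequence. For these 2 genes the genotype and the donor sequence cannot be told apart.

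The 4 genes named next act in the signal itself, as parts of the complex that drives the response, as its amplifier or as its brake. Usp18, which removes ISG15 and dampens the receptor, had 11.52 and 11.59 in the knock-out pools, against 12.19 and 11.43 in the wild-type pools. Its ratios were -0.67 and 0.16. Stat2 had -0.36 and 0.15, and Irf7, the factor that amplifies interferon production, -0.31 and -0.15. Irf9 by its brightest probe had -0.19 and 0.22 with a mean of 0.01 and a 95% interval from -0.34 to 0.36, while its dimmer probe gave 0.49 and 0.34.

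Of the other induced genes, Parp9, an ADP-ribosyltransferase family member, had -0.53 and 0.04. Its pools fell into pairs by array, with 10.38 and 11.42 in the knock-out pools, against 10.91 and 11.38 in the wild-type pools. Parp14, of the same family, had 0.18 and 0.03 by its brightest probe. Its other probes gave 0.03 and 0.28, and -0.04 and -0.12, so its direction depended on the probe. Rtp4, a chaperone of receptors, had -0.09 and 0.18. Ifi44, a cytoplasmic protein, had -0.26 and 0.01, and its dimmer probe gave -0.19 and -0.30. The brightest Parp14 probe and the Rtp4 probe were bright enough for their signal to come from the scan at low gain, multiplied up. By its brightest probe Ifi44 passed the filter through the wild-type channels only, since knock-out pool 2 was not well above background. Ifi35, a leucine zipper protein, was the one gene of the group whose ratios were both above 0.1: it had 12.60 and 12.88 in the knock-out pools, against 12.43 and 12.45 in the wild-type pools, and a mean of 0.30 ± 0.14 (SE, n = 2), with a limma adjusted p of 0.571.

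The levels of the 4 pools were also set side by side. Wild-type pool 1 had the highest level of the 4 for 25 of the 29 genes, against 32.5% of all genes. Relative to each gene's mean over the pools, the median log2 level was -0.06 in knock-out pool 1 and -0.10 in knock-out pool 2, against 0.28 in wild-type pool 1 and -0.18 in wild-type pool 2. Over all genes the 4 medians lay between -0.03 and 0.02. The wild-type pools differed from each other by a median of 0.49 (pool 1 minus pool 2), against 0.03 over all genes. The knock-out pools differed by 0.10, against 0.04 over all genes. Of the 29 genes, 2 were lower in wild-type pool 1 than in wild-type pool 2, and the share over all genes was not computed. The difference between the wild-type pools was thus as large as that between the genotypes on array 1.

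**Figure D3:**
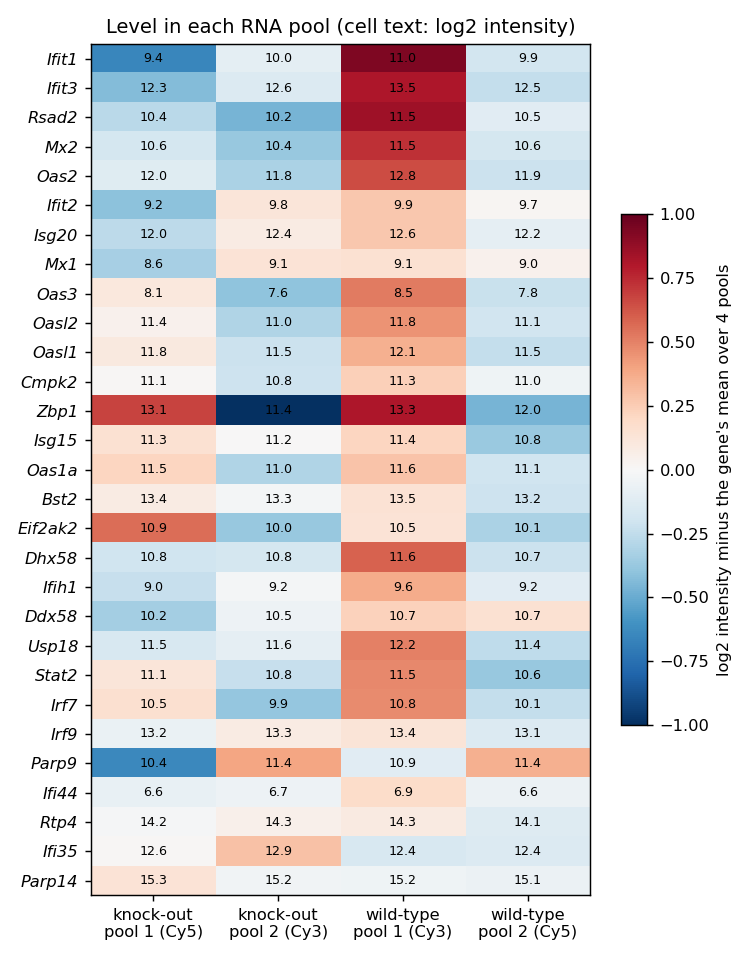
Normalized log2 intensity (numbers) of each tested gene in the 2 knock-out and 2 wild-type pools, with the dye of each pool; colour shows the difference from the gene's mean over the 4 pools. The column of wild-type pool 1 holds the highest level for 25 of 29 genes.

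Levels were also compared within a dye, across arrays. In Cy5, knock-out pool 1 minus wild-type pool 2 had a median of 0.08 over the 29 genes (0.02 over all genes), and 11 of 29 were below 0. In Cy3, knock-out pool 2 minus wild-type pool 1 had a median of -0.51 (-0.06 over all genes), and 26 of 29 were below 0. The shares of all genes below 0 in these differences were not computed. With loess, both comparisons that hold wild-type pool 1 gave lower medians in the knock-out, and neither comparison with wild-type pool 2 did. The comparisons reuse the same pool values and are not independent. Without loess the array 2 median relative to all genes was -0.12. Wild-type pool 1 was measured only in Cy3 on array 1, so pool, dye and array cannot be told apart. The differences within a dye cross arrays and rest on the scaling of both arrays to a common intensity distribution. Each pool was measured once, so these differences were not tested.

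For comparison, 45 of 52 other genes induced by type I interferon were tested. Their median was -0.14 on array 1 and 0.05 on array 2. On array 1, 3 of the 45 were at least 1.5-fold lower, against 3.64% of all genes. Wild-type pool 1 was the highest pool for 26 of the 45, against 32.5% of all genes. Cxcl10, a chemokine, had -1.33 and 0.39. Its signal was dim, with 6.48 and 7.35 in the knock-out pools, against 7.80 and 6.96 in the wild-type pools. The undetected Oas1g probe lay between 6.09 and 6.27. Of the 45, 0 passed the adjusted threshold. At an unadjusted p of 0.05 by limma 3 were higher and 1 lower, against 3.15% and 5.97% of all genes. Psmb9, a subunit of the immunoproteasome, had 0.34 and 0.68 with a mean of 0.51 and an adjusted p of 0.335 by limma.

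The IRG and GBP GTPases, which attack the vacuoles of intracellular microbes and respond strongly to interferon gamma, had higher signal in the knock-out pool on both arrays for 16 of the 17 genes tested, against 24.2% of all genes; the exception was Gbp2, with 0.52 and -0.36. Their median was 0.46 on array 1 and 0.45 on array 2, and 4 of the 21 listed genes were not tested. Both knock-out pools were above both wild-type pools for 12 of 17, against 9.56% of all genes. Wild-type pool 1 was the highest pool for 0 of the 17, against 32.5% of all genes. Iigp1 passed the adjusted threshold by limma (adjusted p 0.0312), with 9.93 and 8.85 in the knock-out pools, against 7.80 and 7.29 in the wild-type pools, and a mean ratio (log2) of 1.84 with an SE of 0.17 (n = 2). Igtp had 0.75 and 0.71, and Gvin1 1.04 and 0.45, with adjusted p of 0.161 and 0.244 by limma. Whether the antiviral genes and the GTPases differ from each other was not tested.

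**Figure D4:**
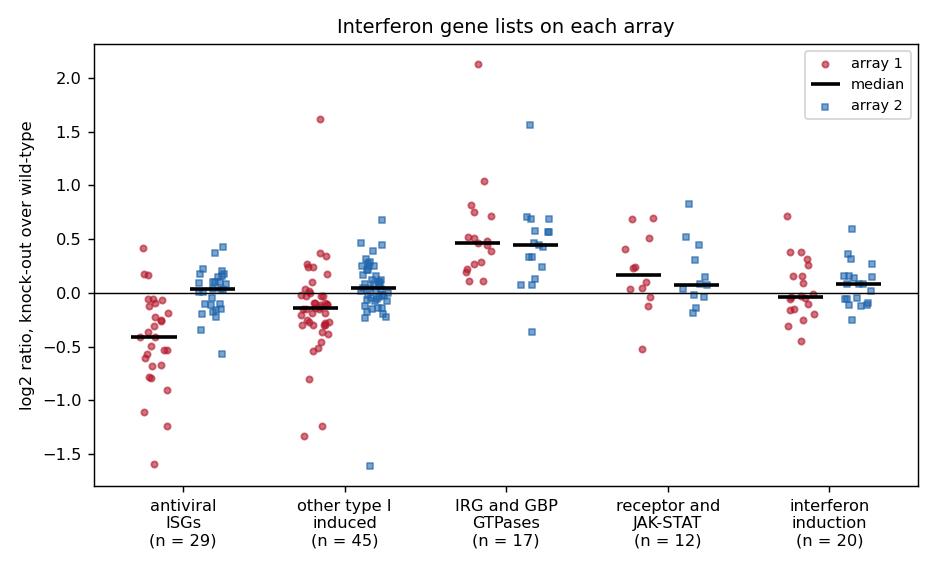
Knock-out over wild-type ratio (log2) of each gene on array 1 (circles) and array 2 (squares) in 5 gene lists, with black bars at the medians. The antiviral genes have medians of -0.41 and 0.04, and the IRG and GBP GTPases 0.46 and 0.45.

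Upstream of these genes, 0 of 12 genes of the receptor and JAK-STAT list passed the adjusted threshold by limma. At an unadjusted p of 0.05 by limma 3 were higher and 0 lower, against 3.15% and 5.97% of all genes. Socs1 and Socs3, inhibitors of JAK kinases, were among the 3. Socs1 had 11.40 and 10.46 in the knock-out pools, against 10.71 and 9.63 in the wild-type pools, with ratios of 0.69 and 0.83 and a limma adjusted p of 0.161. Socs3 had ratios of 0.51 and 0.45 and a limma adjusted p of 0.312.

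Of the 20 genes of interferon induction (nucleic acid sensors, adaptors and IRF factors), 0 passed by limma adjusted or unadjusted at 0.05. Over all genes, 5.97% were lower and 3.15% higher at the unadjusted threshold. Irf1, a transcription factor, had the largest mean, 0.40, from 0.72 and 0.08. Only 8 of 21 interferon genes were tested. The others had no probe under their name or none past the filter, and these were not counted apart. Ifng, the interferon gamma gene, had 7.76 and 7.38 in the knock-out pools, against 8.27 and 8.37 in the wild-type pools, with an adjusted p of 0.229 by limma. Ifna1 had -0.15 and -0.17, and the family's genes are close copies whose probes may share signal.

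The labels were checked on the same arrays. Ccr7 had a ratio of -1.11 on array 1 and -0.74 on array 2 (limma adjusted p 0.142), and it was not checked here whether its probe lies in the deleted part. All 12 B-cell markers were among the genes tested, and 0 passed the adjusted threshold by limma. At an unadjusted p of 0.05 by limma 2 were lower and 1 higher, against 5.97% and 3.15% of all genes. Pax5, a factor that maintains B-cell identity, had -0.79 and -0.86 (limma adjusted p 0.141), and Cd72, a B-cell coreceptor, 0.52 and 0.55 (limma adjusted p 0.26). Cd79b and Ms4a1, chosen after their values were seen, had 1.45 and 1.75 on array 1 and -1.52 and -1.23 on array 2, higher in the Cy5 pool of each array. The summed intensity of the 12 markers was 659220 and 463788 in the knock-out pools, against 434812 and 645050 in the wild-type pools. Cd79b and Ms4a1 were the 2 brightest of the 12 in both Cy5 pools and weigh most in those sums. Signal of Cd79b, Ms4a1, Pax5 and Cd72 came at least in part from the scan at low gain, multiplied up. By gene, the highest pool was knock-out pool 1 for 3 markers and knock-out pool 2 for 4. It was wild-type pool 1 for 3 and wild-type pool 2 for 2.

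Of 11 markers of plasmacytoid dendritic cells, which make type I interferon, 9 were tested. Wild-type pool 1 was the highest pool for 2 of the 9, against 32.5% of all genes. By limma 0 of the 9 passed the adjusted threshold. At an unadjusted p of 0.05 by limma 1 was lower and 1 higher, against 5.97% and 3.15% of all genes. Upb1 had -0.98 and -1.11 (limma adjusted p 0.0678), Cd209d 0.98 and 0.10, and Spib 0.09 and 0.25. The summed intensity of the 9 was 56176 and 56743 in the knock-out pools, against 57868 and 50267 in the wild-type pools. Between 97.1% and 98.2% of each sum came from Spib, Tcf4, Pld4 and Pacsin1, and the other 5 summed to 1041 and 1032 in the knock-out pools, against 1255 and 1437 in the wild-type pools. For 11 of 15 myeloid and conventional dendritic cell markers the sums were 10700 and 7850 in the knock-out pools, against 6116 and 10949 in the wild-type pools. Lyz2 gave 54.7% to 73.0% of them, and without it they were 2885 and 2903 in the knock-out pools, against 2768 and 3462 in the wild-type pools. T-cell markers (12 of 15 tested) summed to 16131 and 11934 in the knock-out pools, against 14351 and 11996 in the wild-type pools, of which Lck gave 65.2% to 73.7%. Without Lck the sums were 4249 and 3531 in the knock-out pools, against 4175 and 4173 in the wild-type pools. At an unadjusted p of 0.05 by limma 5 of the 12 T-cell markers were lower, against 5.97% of all genes, and 0 passed the adjusted threshold. Thy1, among the 5, had ratios of -0.93 and -0.63. The part of other cells in the array 1 difference was not tested. Of spots on the arrays, 68.2% and 58.4% were well above background in the knock-out channels, against 63.1% and 68.8% in the wild-type channels, and 0 were saturated. With 1 value per pool, precision is set by the small number of arrays.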

How the data were processed

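The files hold spot intensity from the scanner as deposited. Spots were read with Agilent Feature Extraction 9.5.3.1 by the authors, per the submitters' processing notes, and probe positions are on mm8, per the file headers. Its log10 ratio of Cy5 over Cy3 and the deposited log2 value table were alternatives. RNA was amplified from 20 ng per condition, per the labels' protocols.

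Background was corrected by normexp (offset 50) and ratios by loess (control spots at weight 0, span 0.3, 4 iterations), both with limma 3.58.1 (R 4.3.3). Outlier spots were left out and spots of a probe averaged. A probe was kept where both knock-out or both wild-type channels were well above background, and each gene took its brightest probe. Ratios were fitted over all 17685 genes with the dye orientation as design (1 residual and 6.19 prior degrees of freedom), with Benjamini-Hochberg adjustment. Pool levels are log2 intensities after scaling average intensities between arrays (Aquantile). The offset shrinks ratios of dim probes. Of the 17685 genes, 1628 had signal from the scan at low gain, multiplied up. Psmb9, Igtp, Gvin1, Irf1 and Spib were among them. The fit was run on simulated ratios of independent genes with known changes and no dye or pool effect. That run checks the fitting code and cannot speak to such effects in these arrays. P-values measure the spread of 2 pool pairs and a pooled prior, not that of sorted samples.

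The members and lists were chosen with earlier results of these data known. All members are named, with Ccr7 and, from each other list, up to 3 genes with the largest mean and those past the threshold. From a few lists fewer are given, and 1 gene that the rule takes is not reported here. Zeros stand for values that round to 0.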

Additional observations from a re-analysis of the deposited data

How the results depend on the processing

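In each of 13 other settings 0 members passed the adjusted threshold, with smallest adjusted p from 0.0924 to 1, while the count over all genes (18) ranged from 0 to 98. The settings without an intensity-dependent correction moved the group values. With median centring the array 2 median of the members was -0.59 beside -0.47 over all genes. There 15 members were at least 1.5-fold lower (39.1% of all genes), and 21 were lower on both arrays (30.1% of all genes). With no within-array normalization these were -1.07 beside -0.95, 28 (73.7%) and 20 (33.3%). The median of the members' mean ratios was then -0.68 in place of -0.23. Relative to all genes the members' array 2 median was -0.12 in both, against 0.06 in the processing described, so the sign on array 2 is not settled. The cause was not tested. On array 1 the members' median lay between -0.42 and -0.25 relative to all genes in every setting run. Without array 1 the median of the members' ratios was 0.04 and without array 2 it was -0.41, values with no test. Of 287 values of single members under other settings, 254 moved by less than the SD between arrays, and 29 of the other 33 came from the settings without that correction. The separate-channel fit planned with dye and array terms could not be fitted, since 4 channel values leave no residual degree of freedom. A fit without the dye term, chosen after seeing the data, called 0 genes.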
